A study of Homo sapiens with 6 samples.

Results

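ECT2 and 9 other genes of the machinery that splits a dividing cell (RACGAP1, ANLN, KIF23, KIF20A, KIF14, PRC1, AURKB, CIT and HMMR) were followed in the established human neuroblastoma line SK-N-BE(2). The genes were taken by symbol from the probe annotation, with the probe set of the highest mean over the 6 arrays where a gene had several. Named probe sets were found for 8 of the 10 genes, among 14883 named genes in all, and each of the 8 had 1 probe set. ANLN and CIT were not analysed here. Cells of 3 samples had been infected with pLKO-NSC, a lentivirus whose control hairpin is non-silencing (NSC), and cells of the other 3 with pLKO-shBRG1, whose hairpin targets BRG1 (shBRG1). BRG1, encoded by SMARCA4, is an ATPase of the SWI/SNF chromatin remodelling complexes. At 48 h after infection total RNA was extracted, of which 200 ng per sample was hybridised to 1 Affymetrix array. All 6 samples share the line, the virus backbone and the time point, and the labels name a single hairpin per group. The triplicates are not described as separately handled cultures, so p-values measure the spread between these samples only, and that spread may be technical.

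Cytokinesis begins when the overlapping microtubules of the anaphase spindle are bundled into a central spindle. PRC1 crosslinks these microtubules, and the centralspindlin complex of RACGAP1 and the kinesin KIF23 gathers on them and brings in ECT2, an exchange factor that loads RHOA with GTP at the cell equator. Active RHOA then drives assembly of the actin and myosin ring, which is held by scaffolds such as anillin (ANLN) and citron kinase (CIT), and the remaining bridge is cut at the midbody by the ESCRT machinery. Transcripts of most of these genes are known to accumulate late in the cell cycle of dividing cells.

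The 8 genes differed widely in how far they stood apart between the groups. ECT2 was 2.45-fold lower in shBRG1, HMMR 1.76-fold, KIF14 1.57-fold and PRC1 1.32-fold, whereas RACGAP1, KIF23 and KIF20A were lower by 1.15-fold or less and AURKB was 1.12-fold higher. These genes had been picked with the level and the difference between shBRG1 and NSC already known, so their values are a description and carry no test. Their median difference on the log2 scale (shBRG1 minus NSC) was -0.30, beside 0.01 over all named genes and 0.06 over those at or above the median level. In the limma fit over all named genes, 4 of the 8 passed an adjusted p of 0.05 and all 4 were lower, where 7.19% of all named genes were called lower, 9.78% higher and 17.0% in either direction. Among genes at or above the median level, which include 7 of the 8, 11.9% were called lower. The 3 shBRG1 values lay wholly below the 3 NSC values for 6 of the 8 genes and wholly above for 1, beside 15.3% and 20.3% of all named genes. Nothing is read from these counts, because the genes were chosen on the same contrast.

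**Figure D1:**
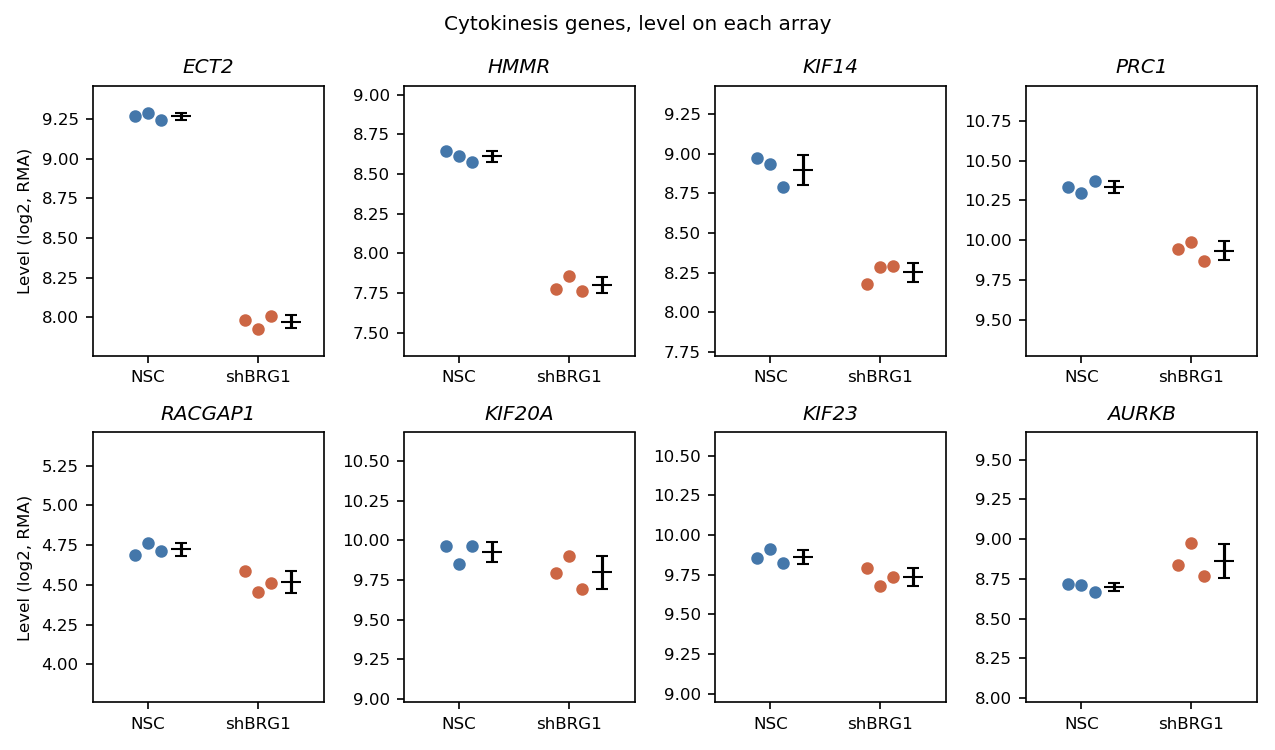
Level of each of the 8 cytokinesis genes on each array (log2, RMA), with every panel spanning the same height; points are arrays, and the black bar with whiskers is the group mean with its SD (n = 3). The NSC and shBRG1 points of ECT2 lie 1.23 apart at their nearest, and those of KIF20A overlap.

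The sequences just upstream of the transcript starts are shown because they let the 4 genes with the largest differences and 3 with small ones be set side by side. RefSeq promoter windows of GRCh38.p14, from 250 bases before to 50 after a start, matched 7 of the 8 genes, RACGAP1 being the other, with 9 windows in all since ECT2 and AURKB have 2 starts each. The 150 bases before the most upstream start are printed 5′ to 3′ in the direction of the gene, with capitals on whole matches to 2 motifs within the stretch. These are TTTGAA, the letters of the cell cycle genes homology region (CHR) that MuvB complexes bind, and CCAAT, the letters of the NF-Y box, each on either strand, so that the opposite strand shows as TTCAAA or ATTGG.
ECT2, chr3:172750576-172750725, plus strand: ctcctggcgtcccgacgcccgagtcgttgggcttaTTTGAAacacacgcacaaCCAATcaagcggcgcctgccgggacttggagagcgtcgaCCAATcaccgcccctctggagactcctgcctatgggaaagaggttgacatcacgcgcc
HMMR, chr5:163460482-163460631, plus strand: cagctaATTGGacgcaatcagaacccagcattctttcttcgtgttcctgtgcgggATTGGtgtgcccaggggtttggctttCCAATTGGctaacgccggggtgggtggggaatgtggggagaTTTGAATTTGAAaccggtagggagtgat
KIF14, chr1:200620752-200620901, minus strand: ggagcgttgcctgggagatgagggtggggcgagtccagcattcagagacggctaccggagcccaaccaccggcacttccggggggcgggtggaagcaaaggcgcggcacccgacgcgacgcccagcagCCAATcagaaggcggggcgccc
PRC1, chr15:90994536-90994685, minus strand: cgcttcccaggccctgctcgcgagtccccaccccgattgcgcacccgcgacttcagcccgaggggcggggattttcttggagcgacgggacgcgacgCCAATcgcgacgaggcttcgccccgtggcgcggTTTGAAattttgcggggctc
KIF23, chr15:69414199-69414348, plus strand: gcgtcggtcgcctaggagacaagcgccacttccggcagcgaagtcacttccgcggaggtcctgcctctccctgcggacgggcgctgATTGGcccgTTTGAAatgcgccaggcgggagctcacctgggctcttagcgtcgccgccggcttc
KIF20A, chr5:138178962-138179111, plus strand: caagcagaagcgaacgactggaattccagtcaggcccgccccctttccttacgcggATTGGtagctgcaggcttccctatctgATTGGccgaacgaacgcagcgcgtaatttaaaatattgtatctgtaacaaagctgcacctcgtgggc
AURKB, chr17:8210250-8210399, minus strand: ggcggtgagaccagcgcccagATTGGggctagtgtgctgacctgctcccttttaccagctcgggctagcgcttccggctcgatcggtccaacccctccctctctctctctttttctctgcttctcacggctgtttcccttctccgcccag

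TTTGAA on either strand was found in 6 of the 9 windows, of 5 of the 7 genes, beside 15.2% of all 35116 windows of the same length. CCAAT was found in 8 of the 9 windows and in all 7 genes, beside 34.6% of all windows. The windows of ECT2 overlap, as do those of AURKB, whose CCAAT match is the same site in both. These are shares of windows, so they are no direct measure for the counts of genes. A second CHR spelling, TTCGAA, was in 0 of the 9 windows, beside 1.45% of all windows. The E2F letters TTTCCCGC, TTTGGCGC, TTTCGCGC and TTTGCCGC, as 1 group, were in 0 of the 9, beside 3.31%. Further CHR spellings were not searched for, so a gene without these letters may still hold a CHR-like site. HMMR held a pair of TTTGAA matches end to end, with first bases at -28 and -22 from its start, and 2 of its CCAAT matches overlapped on opposite strands. The match of KIF14 began at base 2 of the transcript, beyond the stretch printed. KIF23, whose difference was small, held TTTGAA and CCAAT as PRC1 and ECT2 did, and KIF20A and AURKB held CCAAT without TTTGAA. Among the other named genes with a window, TTTGAA was present in 17.1% of 805 called lower, 12.8% of 1203 called higher and 15.5% of 8733 not past the threshold. In the same order, CCAAT was present in 44.0%, 43.2% and 40.9%. TTCGAA was present in 3.11%, 2.0% and 2.12%, and the E2F letters in 7.33%, 5.74% and 5.15%. These matches are letters only and are no evidence of a bound site.

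ECT2, the RHOA exchange factor that starts ring assembly, read 9.27, 9.29 and 9.24 on the NSC arrays and 7.99, 7.93 and 8.01 on the shBRG1 arrays. All 3 shBRG1 values were low, and the groups were separated by 1.23 where the spread within a group was at most 0.08. The mean went from 9.27 ± 0.02 to 7.97 ± 0.04 (SD, n = 3), a difference of -1.29 (SE 0.06), which had rank 30 from the lowest among the 14883 named genes. RHOA itself, the GTPase that ECT2 activates, had a difference of 0.12 (SE 0.06, limma adjusted p = 0.25), from 11.15 ± 0.04 to 11.27 ± 0.02. With trend and robust options RHOA passed the threshold as higher (adjusted p = 0.011, range over the alternatives 0.011 to 0.48).

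Centralspindlin, which recruits ECT2, differed far less. KIF23, its kinesin, read 9.85, 9.91 and 9.83 in NSC and 9.79, 9.68 and 9.74 in shBRG1. The groups were apart by only 0.04, and the difference was -0.13 (SE 0.07). With trend and robust options KIF23 passed the threshold as lower. RACGAP1, its GTPase-activating subunit, read 4.69, 4.77 and 4.71 in NSC and 4.59, 4.45 and 4.51 in shBRG1, a difference of -0.20 (SE 0.07). Its shBRG1 values were again the lower ones without overlap. The RACGAP1 probe set was dim, near the array medians of 3.77 to 3.84, so its difference rests on values that may be partly background and may be understated.

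Of the genes that build the central spindle, PRC1, the microtubule crosslinker, read 10.33, 10.30 and 10.37 in NSC and 9.95, 9.99 and 9.87 in shBRG1. The groups did not overlap, and the difference was -0.40 (SE 0.07). KIF14, a kinesin that binds PRC1 and citron kinase, read 8.97, 8.93 and 8.79 in NSC and 8.18, 8.29 and 8.29 in shBRG1. All of its shBRG1 values were below all NSC values by at least 0.50, with a difference of -0.65 (SE 0.08). KIF20A, the kinesin that carries the Aurora B complex to the central spindle, read 9.97, 9.85 and 9.96 in NSC and 9.80, 9.90 and 9.69 in shBRG1. It was the only 1 of the 8 genes whose groups overlapped, with shBRG1 replicate 2 above NSC replicate 2 (difference -0.13, SE 0.08). Over the alternatives its difference ran from -0.19 to -0.08.

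HMMR, a hyaluronan-binding protein that also works in spindle assembly, read 8.65, 8.62 and 8.58 in NSC and 7.78, 7.86 and 7.76 in shBRG1. Its groups were 0.72 apart, and the difference was -0.81 (SE 0.07), a value that 0.907% of named genes, itself included, reached or went below. AURKB, the kinase of the chromosomal passenger complex, went the other way. It read 8.72, 8.71 and 8.67 in NSC and 8.84, 8.98 and 8.77 in shBRG1, so that all of its shBRG1 values were the higher ones, by at least 0.05. Its difference was 0.16 (SE 0.08).

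**Figure D2:**
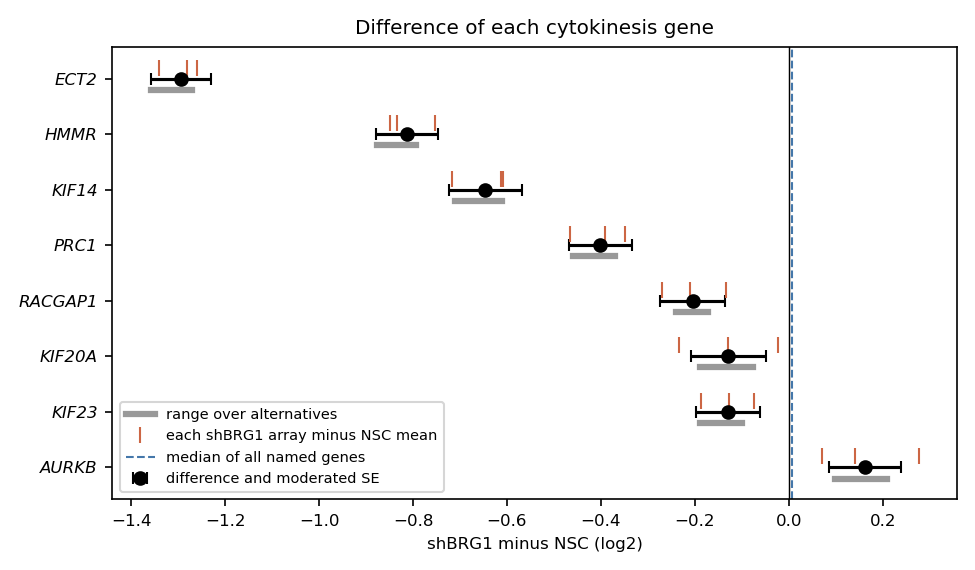
Difference between shBRG1 and NSC for the 8 cytokinesis genes (log2); black points with whiskers are the fitted difference and its moderated SE, orange ticks each shBRG1 array minus the NSC mean, grey bars the range over the alternative analyses, and the dashed line the median of all named genes. ECT2 stands at -1.29, and AURKB at 0.16 is alone above 0.

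The partners of AURKB in the chromosomal passenger complex were lower while AURKB was not. The survivin gene BIRC5 read 7.69, 7.49 and 7.70 in NSC and 7.14, 7.27 and 7.16 in shBRG1, a fall of 0.44 on the log2 scale (SE 0.08, limma adjusted p = 0.011). The scaffold INCENP (-0.35, SE 0.08, adjusted p = 0.019) and borealin, CDCA8 (-0.35, SE 0.08, adjusted p = 0.021), fell too. The call of INCENP needed replicates 1 and 2 of both groups, with an adjusted p above the threshold when any 1 of these arrays was left out (0.0024 to 0.068 over its alternatives). That of CDCA8 needed NSC replicate 3 and shBRG1 replicates 1 and 3 in the same way (0.0013 to 0.072). The difference between AURKB and its partners was not tested.

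Among 14 measured genes of the central spindle and the chromosomal passenger complex outside the 8, 5 fell and 2 rose, 7 missed the threshold, and the list had a median difference of -0.17. Over all named genes 7.19% fell and 9.78% rose, and the 2 of 14 that rose are near that share. Of genes at or above the median level, 11.9% fell. This list and those below were chosen with earlier results of these data known, so their counts are a description. Besides the 3 partners of AURKB, the mitotic kinase AURKA (-0.51, SE 0.09, adjusted p = 0.0092) and the microtubule binder NUSAP1 (-0.38, SE 0.07, adjusted p = 0.0092) fell. The microtubule plus-end proteins CLASP2 (0.36, adjusted p = 0.0088) and CLASP1 (0.34, adjusted p = 0.018) rose. PLK1, the kinase that licenses the binding of ECT2 to RACGAP1, had a difference of -0.04 (SE 0.07, adjusted p = 0.78), with 10.74, 10.62 and 10.76 in NSC and 10.65, 10.69 and 10.67 in shBRG1. The lower count was 3 without shBRG1 replicate 1, and the higher count was 1 without NSC replicate 1 or shBRG1 replicate 1 or 2, where CLASP1 was no longer called (adjusted p 0.00092 to 0.061 across settings).

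Of 16 measured genes of the contractile ring and the RHOA pathway among 26 listed, 6 fell and 10 missed the threshold, with a median of -0.16, where 7.19% of all named genes, and 11.9% of those at or above the median level, fell. In the limma fit 0 rose, beside 9.78% of all named genes, and nothing is read from that count. At an unadjusted p under 0.05 the count was also 0, whereas RHOA alone rose with trend and robust options. DIAPH3, a formin that nucleates actin filaments, read 8.40, 8.37 and 8.30 in NSC and 7.63, 7.67 and 7.71 in shBRG1. Its groups did not overlap, and it fell most (-0.69, SE 0.07, adjusted p = 9.6e-04). The septins SEPTIN6 (-0.63, SE 0.07, adjusted p = 0.0019) and SEPTIN11 (-0.47, SE 0.07, adjusted p = 0.0050), filament proteins of the cleavage furrow, fell as well. SEPTIN2, SEPTIN7, SEPTIN8, SEPTIN9 and SEPTIN10, named after their values were seen, were among those not past the threshold. RHOC (-0.35, adjusted p = 0.028), the actin-severing cofilin CFL1 (-0.30, adjusted p = 0.035) and the formin DIAPH1 (-0.23, adjusted p = 0.049) fell too. The probe sets of RHOC and CFL1 were dim, with NSC means of 4.92 and 4.70, so their values may be partly background. Neither was fitted with dim genes left out. Leaving out any array, or centring arrays on their medians, put CFL1 (adjusted p 0.032 to 0.10 across settings) and DIAPH1 (0.0046 to 0.14) outside the threshold, as trend and robust options did for CFL1. RHOC was outside it without NSC replicate 2 or any shBRG1 array (0.024 to 0.089). The count was accordingly 3 without NSC replicate 2 or without any of the shBRG1 arrays. The myosin II genes and both ROCK kinases of the list were not analysed here.

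Of 19 measured genes of the midbody and of abscission among 25 listed, 2 fell and 3 rose, 14 missed the threshold, and the median was 0.03. Both counts are near the shares over all named genes, 7.19% lower and 9.78% higher, so nothing is read from them for the list. CEP55, the midbody protein that recruits the ESCRT factors, read 9.38, 9.33 and 9.36 in NSC and 8.62, 8.61 and 8.67 in shBRG1. All its shBRG1 arrays were low, and it fell by 0.73 on the log2 scale (SE 0.06, adjusted p = 6.3e-04). The ESCRT-III subunit CHMP4B also fell (-0.30, adjusted p = 0.023), but the subunits CHMP1B (0.58, SE 0.08, adjusted p = 0.0032) and CHMP2B (0.53, SE 0.11, adjusted p = 0.017) and the ATPase VPS4A, which takes ESCRT-III filaments apart (0.43, SE 0.09, adjusted p = 0.018), rose. CHMP4B stayed called when shBRG1 replicate 2 was left out but not when any other array was (adjusted p 4.5e-04 to 0.079 across settings), which left CEP55 as the 1 gene called lower. Without NSC replicate 2 the higher count was 1, since CHMP2B (0.0048 to 0.058) and VPS4A (0.0010 to 0.064) missed the threshold. VPS4A also missed it when NSC replicate 3 or shBRG1 replicate 2 or 3 was left out.

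Spindle assembly genes, the wider process in which HMMR acts, were lower in 5 of 11 measured cases among 18 listed and higher in 1. Another 5 missed the threshold, and the median was -0.24. TPX2, FAM83D, TACC3, ASPM, DYNLL1, BRCA1 and DLGAP5 of the list were not analysed here. Beside the 7.19% lower and 9.78% higher over all named genes, the single higher gene is near the background. Among genes at or above the median level, 11.9% were called lower. The kinesin KIFC1 (-0.48, SE 0.07, adjusted p = 0.0036), the spindle proteins CKAP2 (-0.50, adjusted p = 0.0064) and CKAP2L (-0.49, adjusted p = 0.0071), and SPAG5 (-0.50, adjusted p = 0.0086) fell. The kinesin KIF11, the motor of spindle bipolarity, fell by 0.30 (adjusted p = 0.022), a call that leaving out NSC replicate 1 or 2, or any shBRG1 array, ended (1.9e-04 to 0.079 across settings). CKAP5, a microtubule polymerase, rose (0.36, SE 0.07, adjusted p = 0.010).

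**Figure D3:**
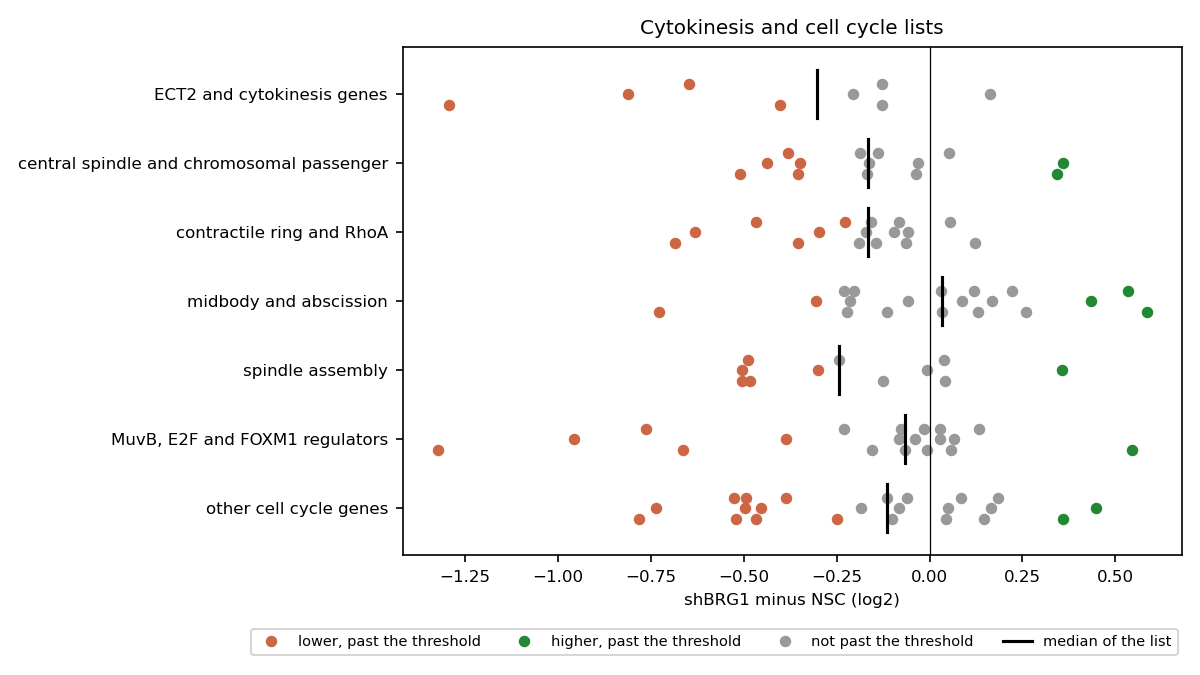
Difference between shBRG1 and NSC (log2) for each measured gene of the 8 cytokinesis genes and of 6 related lists; points are genes, coloured by the limma call at an adjusted p of 0.05, and vertical bars are list medians. List medians run from -0.30 for the 8 genes, which were chosen on this contrast, to 0.03 for midbody and abscission. The 6 lists were also chosen with earlier results of these data known.

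Of 19 measured genes of the MuvB, E2F and FOXM1 list among 22 listed, 5 fell, 1 rose and 13 missed the threshold. The median was -0.07, where 7.19% of all named genes fell and 9.78% rose. Of genes at or above the median level, 11.9% fell. The list holds regulators known to act on cell cycle promoters, not only late ones, of which E2F4, E2F5 and E2F6 were not analysed here. The atypical repressor E2F7 read 7.14, 7.33 and 7.16 in NSC and 5.93, 5.85 and 5.89 in shBRG1. It fell by 1.32 (SE 0.08, adjusted p = 1.8e-04), and its groups were far apart. The E2F dimer partner TFDP1 (-0.96, SE 0.08, adjusted p = 5.1e-04), the MYB family member MYBL1 (-0.76, SE 0.07, adjusted p = 9.9e-04) and DYRK1A, the kinase that promotes assembly of the DREAM repressor (-0.66, SE 0.07, adjusted p = 0.0014), fell. Of the pocket proteins of that complex, RBL1 fell (-0.38, adjusted p = 0.0091) and RBL2 rose (0.55, SE 0.07, adjusted p = 0.0028). FOXM1, an activator of G2/M genes, read 9.16, 9.04 and 9.15 in NSC and 9.09, 9.17 and 9.06 in shBRG1, with overlapping groups and a difference of -0.02 (SE 0.07, adjusted p = 0.91) whose sign turned after median centring.

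Of 23 measured genes of the other cell cycle list among 24 listed, 10 fell, 2 rose and 11 missed the threshold. The median was -0.12. Over all named genes 7.19% fell and 9.78% rose, so the 2 higher genes are near the background share. Of genes at or above the median level, 11.9% fell. The cyclins CCNE2 (-0.74, adjusted p = 7.0e-04) and CCNE1 (-0.78, adjusted p = 0.0010), the proliferation marker MKI67 (-0.50, adjusted p = 0.0024) and the sliding clamp PCNA (-0.53, adjusted p = 0.0039) had the smallest adjusted p among those that fell, and the helicase subunits MCM5 (0.45, adjusted p = 0.0081) and MCM7 (0.36, adjusted p = 0.012) rose. The part of a change in the share of cells in each cycle phase in the values of ECT2 and the other cytokinesis genes was not tested. In these bulk samples, fewer cells of a type and less RNA per cell cannot be told apart.

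The 5 genes outside the 8 whose centred profile over the 6 arrays lay nearest to that of ECT2 were TPMT, PANX1, E2F7, USP1 and CDK6. Their root mean square differences from the ECT2 profile were 0.050 for TPMT, a thiopurine methyltransferase, 0.054 for the channel protein PANX1, 0.058 for E2F7, 0.067 for the deubiquitinase USP1 and 0.069 for the G1 kinase CDK6, on the log2 scale. With 2 groups that lie far apart, this measure ranks genes mainly by the size of the difference, which ran from -1.25 (TPMT) to -1.35 (USP1) beside -1.29 for ECT2. Among the cytokinesis genes, HMMR at 0.25 and KIF14 at 0.33 were nearest, and AURKB at 0.73 was farthest.

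**Figure D4:**
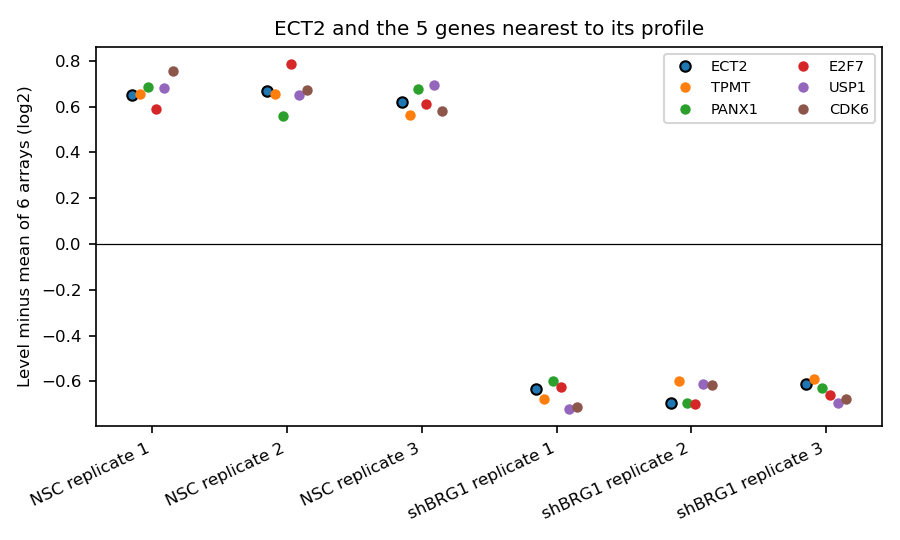
Level of ECT2 and of the 5 genes nearest to its profile on each of the 6 arrays, each gene centred on its own mean over the arrays (log2). All 6 genes stand above 0 on the 3 NSC arrays and below 0 on the 3 shBRG1 arrays, with root mean square differences from ECT2 of 0.050 to 0.069.

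The arrays were alike in scale, as RMA makes them, and all measured neuroblast markers lay above the array medians. Pearson correlations across the 52299 probe sets were 0.9907 to 0.9925 within a group and 0.9860 to 0.9881 between groups. Of 12 sympathetic neuroblast markers 11 were measured, with NSC means of 7.60 to 11.28. Of them PHOX2A (-0.51), CHGA (-0.48), ISL1 (-0.44), HAND2 (-0.38) and CHGB (-0.30) fell, 6 missed the threshold and 0 rose. The shares over all named genes were 7.19% lower and 9.78% higher, and 11.9% of genes at or above the median level were lower. The mean of the list over its genes was 9.68 to 9.71 on the NSC arrays and 9.53 to 9.55 on the shBRG1 arrays. Schwann and glial markers (5 of 7 measured) were dim, with NSC means of 2.92 to 5.24, and 1 of them fell. The leukocyte markers measured (3 of 6) had NSC means of 2.76 to 6.65. Of 3 measured fibroblast markers among 8 listed, LUM (0.39, adjusted p = 0.027) and DCN (0.44, adjusted p = 0.0092) rose and THY1 did not pass. Their NSC means were 4.96 to 8.24, and LUM (8.24) and THY1 (7.79) stood above the lowest neuroblast marker, TH (7.60). The mean of these 3 was 6.92 to 7.09 on the NSC and 7.18 to 7.32 on the shBRG1 arrays, and their part in the results on cytokinesis genes was not tested. The level of SMARCA4 was not analysed here, so the samples are described by their labels alone.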

How the data were processed

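The authors deposited a log2 level for each probe set, for which R 3.1.0 with RMA and the packages limma 3.19 and oligo 1.27 is recorded in the submitters' processing notes. RMA gives the probe values of all arrays 1 distribution, which hides any shift common to all genes and can understate changes of dim probe sets. The likeness of the arrays in scale is therefore no check of their quality. The probe set levels summarised from these values had array medians of 3.77 to 3.84. The genome build of the probes is not stated in the sources used. Of 52299 probe sets, 15828 carried 1 gene symbol, updated through gene identifiers of GRCh38.p14, and 945 were set aside where a gene had a brighter one. The 14883 genes were fitted in R 4.3.3 with lmFit and eBayes of limma 3.58.1 (two-sided, shBRG1 against NSC, no covariates), with Benjamini-Hochberg adjustment over all genes and a threshold of 0.05. With 3 arrays a group, the smallest p an exact permutation test allows is 0.1. The fit was tested on simulated data. No array batch was given, and the number of arrays limits the precision.

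The 10 genes and all lists were chosen with earlier results of these data known. All 10 genes, the 4 genes of each list with the smallest adjusted p in each direction, RHOA, PLK1, CEP55, MKI67 and FOXM1, and the 5 genes nearest to ECT2 were to be named. CDCA8, CFL1, DIAPH1, KIF11 and RBL1 were named after their values were seen, as the rest of small counts. The neuroblast markers that fell were also named after their values were seen. No filter on dim genes was applied. Alternatives were median centring, cyclic loess, leaving out genes below the median level, averaging probe sets, trend and robust options, the replicate number as a block and leaving out each array in turn. Figures were drawn with matplotlib 3.10.9.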

Additional observations from a re-analysis of the deposited data

How the results depend on the processing

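All 8 cytokinesis genes kept the sign of their difference under every alternative in which they were fitted, a description since they were chosen on this contrast. ECT2 ran from -1.36 to -1.27. The count of the 8 called lower was 4 in the main fit and 5 with trend and robust options, when KIF23 was added. The median of the 8 was -0.40 with dim genes left out, which removes RACGAP1. The total of 2525 genes past the threshold (1070 lower, 1455 higher) ran from 1604 to 1840 without 1 array (lowest for shBRG1 replicates 1 to 3, at 1633, 1662 and 1604), with 694 to 859 lower (694 and 700 without shBRG1 replicate 1 or 3) and 840 to 1055 higher (900 without NSC replicate 2 and 840 to 939 without a shBRG1 array). Without 1 array, counts lower and higher ran from 3 to 4 and 1 to 2 for the central spindle list, 3 to 4 lower for the contractile ring list, and 1 to 2 and 1 to 3 for the midbody list. With dim genes left out, 4 midbody genes were lower and 5 higher; after cyclic loess 4 were lower, and 6 were higher with trend and robust options, when 1 contractile ring gene was higher. FOXM1 changed sign after median centring (adjusted p = 0.99) and without NSC replicate 1 (0.98) or 3 (0.995) or shBRG1 replicate 3 (0.965), in a range of 0.716 to 0.995 without 1 array.

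The values gave no sign that the replicate numbers pair the samples, though they cannot show how the samples were handled. Deviations of same-numbered samples correlated at -0.04, -0.14 and -0.03 across genes, and 0 of 3 pairs correlated best with their own number. With the replicate block, 1608 genes passed, 870 of them higher. The block left 3 lower and 1 higher in the central spindle list, 3 lower in the contractile ring list, 1 lower in the midbody list and 1 higher in the other cell cycle list. Probe sets near the array medians, such as that of RACGAP1, limit what can be said of small differences.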
